A study of Mus musculus with 195 samples.

Results

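Vim, Nes, Krt8, Krt18, Krt19, Gfap, Lmna, Lmnb1 and Lmnb2 are 9 genes of the intermediate filament family, including its nuclear branch, the lamins. They were chosen by name from the 19736 genes of the table of transcript molecules, and all 9 had a molecule in at least 1 cell. ESC-2i and ESC-FCS cells each showed molecules of 8 of the 9 genes, and NSC showed molecules of 5. Vim and Nes were the members with the highest levels in NSC, whereas no molecule of Krt18, Krt19, Gfap or Lmnb1 was seen in that population.

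Intermediate filament proteins share a coiled-coil rod and assemble into ropes that give a cell and its nucleus mechanical strength. Vimentin and GFAP are type III proteins, and nestin is a type IV protein that needs a partner such as vimentin to form filaments. Keratins of simple epithelia pair a type II chain, keratin 8, with a type I chain, keratin 18 or 19, whereas lamins line the inner nuclear membrane. Nestin and vimentin mark neural stem and progenitor cells, GFAP marks astrocytes, and early embryonic cells are known for B-type lamins with little lamin A.

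BATSeq, a barcoded sequencing of mRNA 3′ ends that counts molecules by unique molecular identifiers, was applied to 48 cells from each of 3 mouse cultures. The 46C line, derived from E14tg2a embryonic stem cells and carrying a Sox1-GFP reporter, was grown on gelatin for both embryonic populations. ESC-2i cells were kept without serum in 1 µM PD0325901, 3 µM CHIR99021 and 10 ng/ml LIF, and ESC-FCS cells in 10% serum with 10 ng/ml LIF. NSC came from 46C cells by monolayer differentiation and a sort for GFP, and were expanded on laminin with EGF and bFGF. The NSC culture was carried until GFP was lost and Nestin was up in all cells, so the Nes level of NSC partly describes how the culture was defined. In every population, small cells with G0/G1 DNA content were sorted. Further libraries held 48 ESC-FCS control cells, 1 pool of 48 ESC-FCS cells and 2 pool libraries of 48 ESC-2i cells each. The labels do not say whether the latter, called pools 1 and 2 here, hold different cells. Each population is 1 culture, so nothing was tested between populations. Molecules were summed over cells, and intervals (95%, exact Poisson for levels, exact conditional binomial for ratios, Clopper-Pearson for shares) cover counting error only.

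The table of genes held 33 ESC-2i cells with 368362 molecules, 33 ESC-FCS cells with 226683 and 41 NSC with 151877. The median cell had 10864, 6375 and 3282 molecules, respectively, so a gene seen in few NSC was also looked for at lower depth. Among the marker genes of the labelled cell types, the glial and neural genes Fabp7, Olig1 and Olig2 gave 376, 93 and 74 molecules in NSC, against at most 2 of each in either embryonic population. Ptprz1, a receptor phosphatase of neural progenitors, gave 61 molecules in NSC. Of 5 neuron marker genes, also examined, Map2, a microtubule protein, gave 59 molecules in NSC and 0 and 6 in ESC-2i and ESC-FCS, whereas Stmn2 gave 0 in NSC against 93 and 100, and Tubb3 gave 5 against 7 and 9. Tdh, the threonine dehydrogenase of mouse embryonic stem cells, gave 539, 160 and 0 molecules across ESC-2i, ESC-FCS and NSC cells. The pluripotency factor Esrrb gave 300, 141 and 1, and Tfcp2l1 gave 318, 62 and 0. Pax6 and Sox1, also among the neural stem cell marker genes examined, were at 0 in NSC. For Sox1, the culture had been carried until the Sox1-GFP signal was lost, and the gene was at 0 in all other libraries too. Each population was made in 2 library batches, and the same 24 cell barcodes were used in all 8 batches of single cells. Of 6 batch barcodes, 5 served more than 1 group of libraries: the control cells share those of ESC-2i, the ESC-2i pools share those of NSC, and the ESC-FCS pool shares 1 of ESC-FCS. Misassigned molecules were not tested for.

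The positions of molecules were examined first, because each carries the 3′ end of its transcript. Coordinates are those deposited, on GRCm38, and can be shifted by 1 or 2 nt since the base of numbering is not given in the sources used here. The sequences below are the 30 bases that end at a site, 5′ to 3′, read from GENCODE M21 transcripts of the same build. They show sites on which Vim, Nes, keratin and lamin results rest, though not every site described later, with AATAAA or ATTAAA, the common polyadenylation signals, in capitals.
Vim end, chr2:13582786-13582815, plus strand, 3′ UTR in exon 9: ctgaccaacttgttactgcttcAATAAAtc
Vim second site, chr2:13582744-13582773, plus strand, 3′ UTR in exon 9: tatttttgaataccATTAAAactgcttttt
Vim A-flanked site, chr2:13582521-13582550, plus strand, 3′ UTR in exon 9: cacacacttggtgcaacagtgcagtaccag
Nes end, chr3:87980415-87980444, plus strand, 3′ UTR in exon 4: cttcctcccttgAATAAAgctgtatcccta
Nes internal site, chr3:87975605-87975634, plus strand, coding sequence in exon 4: catcccacctatgtctgaggctccctatcc
Krt8 end, chr15:101996707-101996736, minus strand, 3′ UTR in exon 9: aaAATAAAgcctcagctggctctgtcaact
Krt18 end, chr15:102031988-102032017, plus strand, 3′ UTR in exon 7: actgagggaccAATAAAagttgagagctca
Lmna, lamin A end, chr3:88481149-88481178, minus strand, 3′ UTR in exon 12: ccaaatcaatacactagttgtttccatccc
Lmnb2 end, chr10:80901363-80901392, minus strand, 3′ UTR in exon 12: atactcaAATAAAcattgactttaactgca

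The keratin, Lmnb2 and main Vim and Nes ends held AATAAA, and the second Vim site held ATTAAA. The A-flanked Vim site, the internal Nes site and the lamin A end held neither. Of 8042 sites with at least 10 molecules and a window, 64.1% held AATAAA and a further 15.3% held ATTAAA without it. The searches ran on the transcribed strand only. Among sites without a printed sequence are those of Lmnb1 (chr18:56707813-56753424, plus strand), Krt19 (chr11:100140810-100148665, minus strand) and Gfap (chr11:102887336-102900912, minus strand).

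Vim, the filament protein of mesenchymal and neural progenitor cells, was the most abundant of the 9 genes in all 3 populations, although in ESC-FCS its interval overlapped that of Lmnb2. NSC held 130 Vim molecules, a level of 8.56 per 10000 molecules on genes (7.15 to 10.2), ESC-2i cells held 59 (1.60, 1.22 to 2.07) and ESC-FCS cells held 18 (0.794, 0.471 to 1.25). The level in NSC was 5.34 times that in ESC-2i (3.90 to 7.40) and 10.8 times that in ESC-FCS (6.56 to 18.8). Without ESC-FCS batch 1, the batch with the higher level, the latter was 20.6 times, and without batch 2 it was below 10.8. Both ratios depended on the scale and were lower with spike-in scaling. That scaling moved the median log2 ratio of all genes by -1.34 in NSC against ESC-FCS and by -0.30 in NSC against ESC-2i. Both NSC batches, at 9.02 and 8.05 per 10000, lay above both batches of ESC-2i, at 1.89 and 1.34, and of ESC-FCS, at 1.07 and 0.415. Levels of different genes are compared here as molecules per gene, since 1 molecule gives 1 3′ end and no length enters.

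In single cells the Vim level spread from 0 to 23.3 per 10000 in NSC with a median of 6.23, from 0 to 6.44 in ESC-2i with a median of 1.29, and from 0 to 5.53 in ESC-FCS with a median of 0. The ranges overlap at their low ends, and the median NSC lay close to the highest ESC-2i cell. A Vim molecule was seen in 34 of 41 NSC (82.9%, 67.9 to 92.8), 22 of 33 ESC-2i cells (66.7%, 48.2 to 82.0) and 10 of 33 ESC-FCS cells (30.3%, 15.6 to 48.7). Brought to 1000 molecules per cell, the expected shares were 51.0%, 13.8% and 6.27%. For comparison, Tdh was seen in 0 of 41 NSC and Fabp7 in 1 of 33 ESC-2i cells, genes that these cells should lack.

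**Figure D1:**
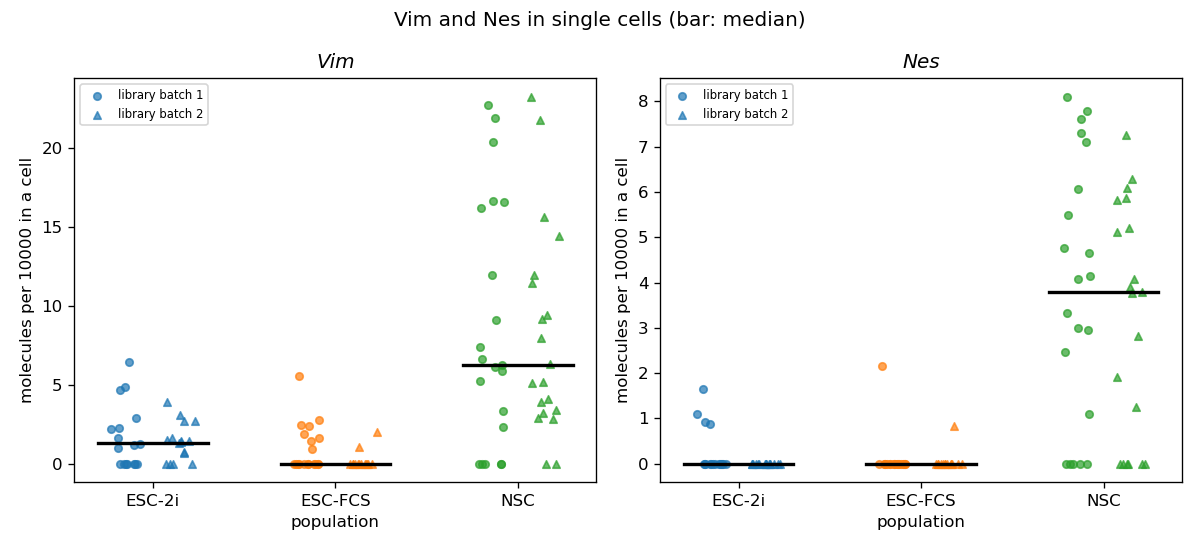
Level of Vim (left) and Nes (right) in each cell, in molecules per 10000, by population. Each point is a cell, circles and triangles are the 2 library batches, and bars are medians. The median Vim level was 6.23 in NSC, 1.29 in ESC-2i and 0 in ESC-FCS, and the median Nes level was 3.79 in NSC and 0 in both embryonic populations.

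Between the embryonic media, Vim was 2.02 times higher in ESC-2i than in ESC-FCS (1.17 to 3.63). This ratio depended on the scale. Without ESC-FCS batch 1, ESC-FCS stood at 0.259 of ESC-2i. Batch 1 alone, at 1.07 per 10000, lay nearer the ESC-2i batches, at 1.89 and 1.34. With spike-in scaling ESC-FCS came out at 1.02 times ESC-2i, and the ESC-FCS cells held fewer spike-in molecules, a median of 3.91% of a cell's molecules against 7.76% in ESC-2i. The separate ESC-FCS libraries gave 22 Vim molecules in 42 control cells (0.986 per 10000) and 14 in the pool (0.782). The ESC-2i pools gave 132 (2.75) and 235 (4.75), which differed from each other by 1.73 times (1.39 to 2.15), a spread that can be of cells or of libraries. Summed, they lay 2.35 times above the ESC-2i cells (1.78 to 3.15). Between pools and cells 38.8% of 8494 genes with at least 20 molecules were at least 2-fold higher in the pools, so a difference of this size was common there. The ESC-2i pools lay 4.82 times above the ESC-FCS pool (2.84 to 8.90), where 31.9% of 8011 genes were at least 2-fold higher. In pools, more cells with Vim and more Vim RNA per cell cannot be told apart. The neural genes Olig1 and Olig2 were at 0 in both ESC-2i pools and Fabp7 gave 6 and 0 molecules. These pools carry the batch barcodes of NSC, and molecules misassigned from NSC were not tested for. The 5 neuron marker genes summed to 4.46 and 4.57 per 10000 in the ESC-2i pools and 2.71 in the ESC-2i cells, with Tubb3 at 92 and 133 molecules in the pools against 7 in the cells. Their part in the Vim level of the pools was not tested.

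**Figure D2:**
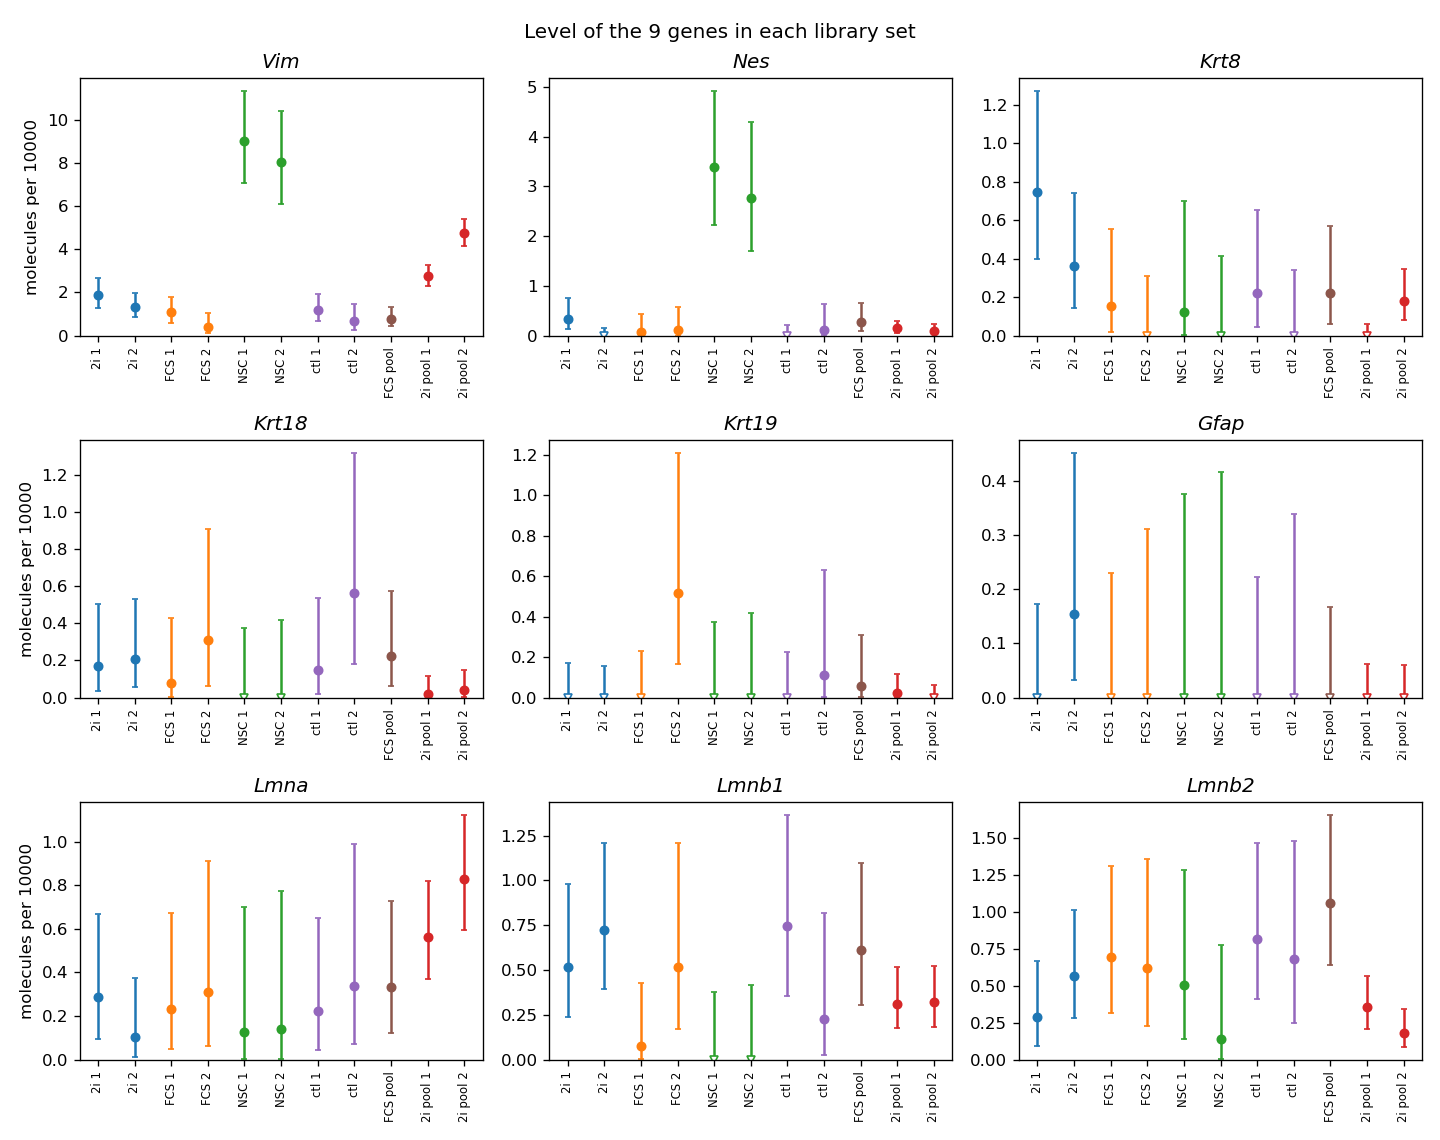
Level of each of the 9 genes in molecules per 10000, with a separate axis for each gene, in the library batches of ESC-2i (2i), ESC-FCS (FCS), NSC and ESC-FCS control cells (ctl) and in the pools. Points are sums over cells, bars are 95% exact Poisson intervals, and open triangles are counts of 0 with the limit of 3 molecules. Vim and Nes were highest in both NSC batches, Krt8 in the ESC-2i batches and Lmna in the ESC-2i pools.

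Most Vim molecules ended 11 nt before the annotated gene end in every population, with 55 of 59 in ESC-2i (93.2%, 83.5 to 98.1), 17 of 18 in ESC-FCS and 116 of 130 in NSC (89.2%, 82.6 to 94.0). The 2 NSC batches differed here. All 58 molecules of batch 2 were at the main site, whereas batch 1 had 58 of 72 (80.6%, 69.5 to 88.9). The other molecules of NSC batch 1 included 8 at the A-flanked site, at -276 nt from the end, each in a different cell. In the transcript 73.3% of the 15 bases that follow that site are A. The authors had removed sites with A-rich sequence downstream, at a higher limit, and priming within the transcript was not tested. The second site, 53 nt before the end, had 7 and 15 molecules in the ESC-2i pools and 0 of 59 in the ESC-2i cells.

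Gfap, the astrocyte filament protein, was not seen in NSC or ESC-FCS, where a count of 0 allows up to 0.198 and 0.132 per 10000. Single molecules in 3 ESC-2i cells, all of library batch 2, ended 6 nt before the annotated end. No Gfap molecule was found in the ESC-2i pools, which allows up to 0.0308 per 10000 over both, nor in the ESC-FCS pool or the control cells. Of 6 astrocyte marker genes, Aldoc, a glycolytic aldolase of brain and astrocytes, gave 235 molecules in NSC and 24 in ESC-2i, and Gja1, a gap junction protein, gave 9 in NSC, 53 in ESC-FCS and 0 in ESC-2i cells, although the ESC-2i pools held 81 and 66. The other 4 genes of that list were at 0 in NSC.

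Nes was 19.0 times higher in NSC than in ESC-2i (8.11 to 54.4) and 35.1 times higher than in ESC-FCS (9.18 to 298). NSC held 47 molecules (3.09 per 10000, 2.27 to 4.12), ESC-2i cells 6 (0.163) and ESC-FCS cells 2 (0.0882). A molecule was seen in 30 of 41 NSC (73.2%, 57.1 to 85.8), with 5 in the highest cell, in 4 of 33 ESC-2i cells and in 2 of 33 ESC-FCS cells. At 1000 molecules per cell the expected shares were 32.5%, 1.36% and 0.907%. The NSC batches lay at 3.38 and 2.77 per 10000, and every embryonic batch was at or below 0.344. All 6 ESC-2i molecules came from batch 1. In the separate libraries Nes gave 1 molecule in the control cells, 5 in the ESC-FCS pool and 7 and 5 in the ESC-2i pools.

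Nes molecules did not all lie at the gene end. In NSC 33 of 47 (70.2%, 55.1 to 82.7) ended 7 nt before it, and the others were mostly at sites within the long coding part of exon 4, of which the internal site printed above had 6 molecules in 5 cells, all of batch 1. In the transcript 46.7% of the 15 bases after that site are A. In ESC-2i, 4 of 6 molecules, in 3 cells, lay at 87975110 on chromosome 3, within an intron of Nes-201, and 2 at the gene end. Counting gene-end molecules alone, chosen as an alternative after seeing the data, the NSC level was 40.0 times that of ESC-2i, from 33 against 2 molecules.

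**Figure D3:**
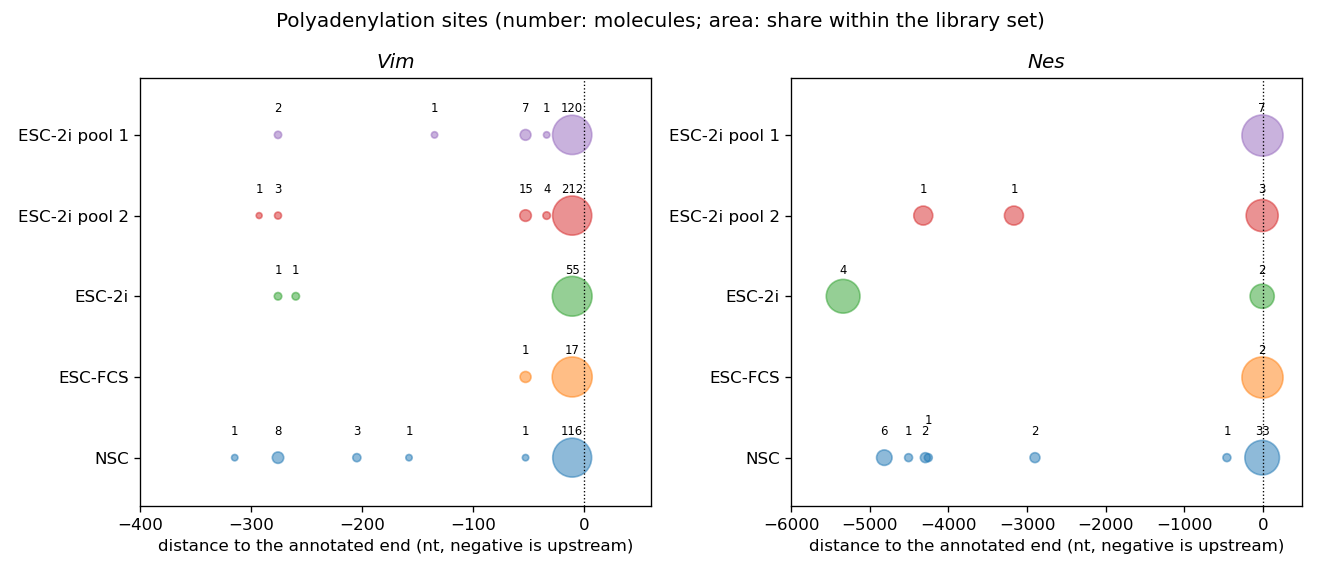
Polyadenylation sites of Vim (left) and Nes (right) by distance to the annotated gene end in nt, for NSC, ESC-FCS and ESC-2i cells and the 2 ESC-2i pools. Numbers are molecules, and the area of a circle is the share of that library set's molecules. The main Vim site holds 116 of 130 molecules in NSC, and Nes has internal sites in NSC and an intronic site with 4 molecules in ESC-2i.

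Krt8 was most abundant in the ESC-2i cells among these libraries. An annotated pseudogene, Krt8-ps, can share reads with it, and only unique alignments were counted. They held 20 molecules (0.543 per 10000, 0.332 to 0.839) from 10 cells, with 5 in the highest, and both batches had it, at 0.745 and 0.361. ESC-FCS held 2 molecules, both in 1 cell, and NSC held 1. The level in ESC-2i was 6.15 times that in ESC-FCS (1.49 to 54.3) and 8.25 times that in NSC (1.32 to 342). Every Krt8 molecule of the embryonic cells ended at the site printed above, 9 nt before the gene end, whereas the single NSC molecule lay 4522 nt downstream, so NSC had none at the gene end itself. The ESC-2i pools did not share the level of the cells: pool 1 had 0 molecules in 479391, an upper limit of 0.0626 per 10000, and pool 2 had 9 (0.182). Summed, the pools lay 5.88 times below the cells (2.56 to 14.7), where 15% of genes were at least 2-fold lower. The ESC-FCS pool had 4 Krt8 molecules (0.223) and the control cells 3 (0.135). The ESC-2i cells lay 4.04 times above the control cells (1.20 to 21.2). In the pools the order of the media was reversed, with the summed ESC-2i pools at 0.414 of the ESC-FCS pool (0.115 to 1.84, which includes 1).

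Krt18, the partner of keratin 8, gave 7 molecules, from 6 ESC-2i cells (0.190 per 10000, 0.0764 to 0.392) and 4 in 3 ESC-FCS cells (0.176, 0.0481 to 0.452). NSC had 0, with a limit of 0.198, so no difference from either embryonic population was detectable at this depth. In ESC-2i, 3 cells had molecules of both Krt8 and Krt18, 7 of Krt8 alone, 3 of Krt18 alone and 20 of neither. In ESC-FCS the 1 cell with Krt8 had no Krt18. The control cells held 7 Krt18 molecules in 6 cells, and the ESC-2i pools 1 and 2 molecules.

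Krt19 was seen only in ESC-FCS among the 3 populations, as 5 molecules in 4 cells (0.221 per 10000, 0.0716 to 0.515). This was 2.71 times the floor of 3 molecules in ESC-2i. The lower limit of the interval, taken from the counts of 5 and 0 without the floor, was 1.49. All 5 came from batch 2, and batch 1, with 130262 molecules, had 0. The control cells, the ESC-FCS pool and ESC-2i pool 1 had 1 molecule each. Of 7 trophectoderm marker genes, a lineage that uses these keratins, ESC-2i cells showed 2, and ESC-FCS cells and NSC 1 each. Summed, they lay at 1.17, 0.397 and 0.0658 per 10000. Cdx2, Gata3 and Krt7 were at 0 in all 3 populations, and Tfap2c was lower in NSC and in ESC-FCS than in ESC-2i by at least 2-fold. Of 7 fibroblast marker genes, a cell type known for Vim, NSC had molecules of 2, at 1 each, ESC-2i of 1 and ESC-FCS of none, with Acta2, Lum, Postn and Thy1 at 0 in all 3. Primitive endoderm genes, of which 6 of 9 had a molecule, summed to 3.47 and 1.54 in the embryonic populations (ESC-2i first) and 5.86 in NSC, and Foxa2, Gata6 and Sox17 were at 0 in all 3. Their part in the levels of Vim and the keratins was not tested.

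The lamins were sparse in all libraries. Lmnb1 encodes a B-type lamin. In ESC-2i its 23 molecules came from 14 of the 33 cells, a level of 0.624 per 10000 (0.396 to 0.937). In ESC-FCS 6 molecules came from 5 cells (0.265, 0.0971 to 0.576), and NSC had 0, with a limit of 0.198. With NSC set to the floor of 3 molecules, ESC-2i was 3.16 times higher. The lower limit of the interval, taken from the counts of 23 and 0 without the floor, was 2.37. Against ESC-FCS it was 2.36 times higher, with an interval of 0.934 to 7.08 that includes 1, and the ESC-FCS batches lay apart at 0.0768 and 0.519 per 10000. Without ESC-FCS batch 2, the level in ESC-FCS was 0.123 of that in ESC-2i, from 1 molecule. The control cells, at 0.538, lay close to the ESC-2i cells. The summed ESC-2i pools held 31 molecules (0.318), 1.96 times below the ESC-2i cells (1.09 to 3.48). In the pools the order of the media was reversed. The ESC-FCS pool, with 11 molecules (0.614), lay 1.93 times above the summed ESC-2i pools (0.875 to 3.94, which includes 1).

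Lmnb2, the other B-type lamin, had 16 molecules in the ESC-2i cells (0.434 per 10000, 0.248 to 0.705), 15 in the ESC-FCS cells (0.662, 0.370 to 1.09) and 5 in NSC (0.329, 0.107 to 0.768). The intervals overlap throughout. ESC-FCS was 2.01 times higher than NSC (0.694 to 7.07) and 1.52 times higher than ESC-2i (0.702 to 3.29). In the pools the difference between media was larger, since ESC-FCS with 19 molecules (1.06) was 3.97 times the 2 ESC-2i pools with 17 and 9 (2.08 to 7.46). Between these pools 19.4% of genes were at least 2-fold higher in ESC-FCS.

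Lmna encodes lamin A and, by a shorter splice form with its own polyadenylation site, lamin C. The ESC-2i cells gave 7 molecules (0.190 per 10000, 0.0764 to 0.392), with 6 in 6 ESC-FCS cells (0.265, 0.0971 to 0.576) and 2 in 2 NSC (0.132, 0.0159 to 0.476), and no cell had more than 1. The 3 levels did not differ beyond their intervals. The ESC-2i pools were higher, with 27 (0.563) and 41 molecules (0.829), and together lay 3.67 times above the ESC-2i cells (1.69 to 9.48).

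Both ends of Lmna were told apart by position: the lamin C transcript Lmna-203 ends within an intron of the lamin A transcript Lmna-201. All 7 ESC-2i molecules were at the lamin C end, which leaves 0% at the lamin A end (0 to 41.0). ESC-FCS had 4 of 6 at the lamin C end and 0 at the lamin A end (0 to 45.9), and its other 2 lay in an upstream intron. NSC had 1 at each. In the ESC-2i pools, 15 of 27 molecules (55.6%, 35.3 to 74.5) and 20 of 41 (48.8%, 32.9 to 64.9) were at the lamin A end, and summed the interval was 39.0 to 63.8. It overlaps the ESC-2i cells' interval at 39.0 to 41.0 alone. The control cells had 2 of 6 and the ESC-FCS pool 1 of 6 at the lamin A end.

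Lmnb1, on chromosome 18, has 2 recurrent sites in exon 11, a distal one 6 nt before the gene end and a proximal one at -599 nt. In the ESC-2i cells 17 of 23 molecules (73.9%, 51.6 to 89.8) were at the distal site and 3 (13.0%, 2.78 to 33.6) at the proximal one. The ESC-2i pools had the reverse, with 13 of 15 (86.7%, 59.5 to 98.3) and 12 of 16 (75.0%, 47.6 to 92.7) at the proximal site. In the control cells and the ESC-FCS pool, 1 of 12 and 2 of 11 were proximal. Between ESC-2i pools and cells, the most used site lay over 12 nt apart for 12.6% of the 3017 genes that had 20 molecules in each. At a limit of 5 molecules it did so for 19% of 7777 genes, and for 3 of the 6 members so measured, Nes, Lmna and Lmnb1. For Lmna this rests on a split of 35 to 33 molecules in the summed pools, and in pool 2 the lamin C end was the most used, with 21 of 41, as in the cells. Between the ESC-FCS control cells and the ESC-FCS cells it did so for 0 of 4 members, against 13.8% of genes, and between NSC and ESC-2i cells for 1 of 3, Nes, against 16.4%. The pools and the cells were separate libraries, so that library and culture cannot be told apart.

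**Figure D4:**
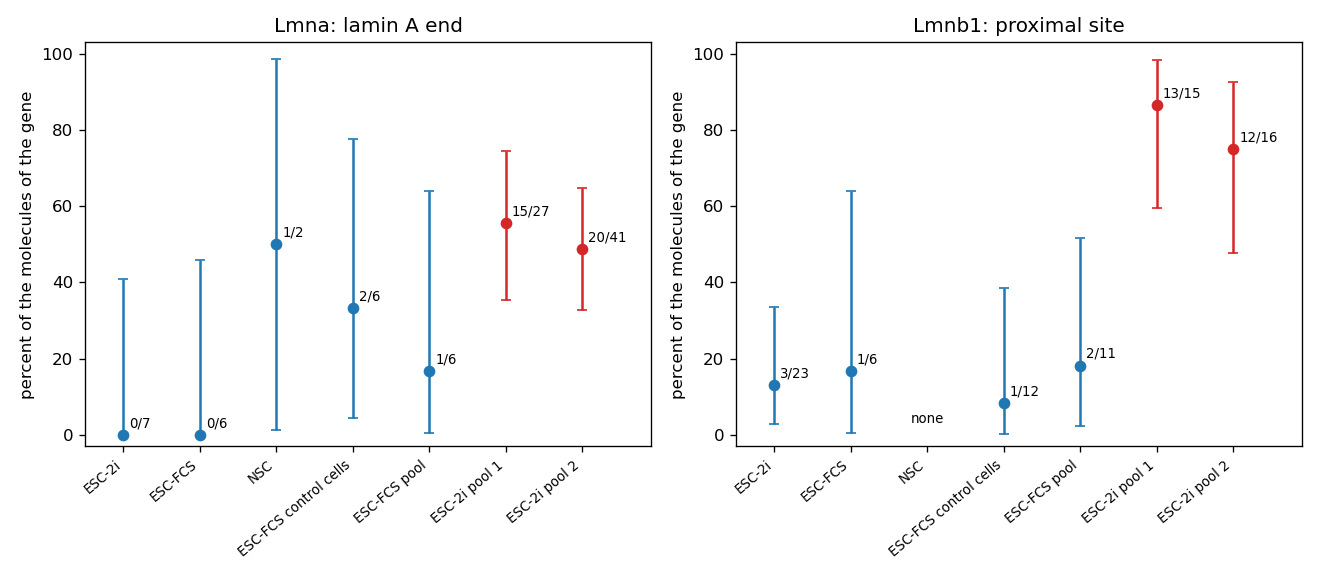
Percent of Lmna molecules at the lamin A end (left) and percent of Lmnb1 molecules at the proximal site (right) in each library set, with 95% Clopper-Pearson intervals and counts beside the points. The 2 ESC-2i pools (red) lie at 55.6% and 48.8% for Lmna, and at 86.7% and 75.0% for Lmnb1, where the ESC-2i cells lie at 0% and 13.0%. NSC had no Lmnb1 molecule.

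Genes were then held to 1 fold rule, which asked for 20 or more molecules over both populations, a ratio of 2 or more, and 1 direction in each of the 4 pairings of their library batches. NSC against ESC-2i passed it for 4 of 5 members with 20 molecules, Vim and Nes higher and Krt8 and Lmnb1 lower, where 40.6% of 4803 genes passed, 17.7% higher and 22.9% lower. NSC against ESC-FCS passed it for 3 of 3, Vim and Nes higher and Lmnb2 lower, against 36.7% of 3600 genes, 19.4% higher and 17.3% lower. ESC-FCS against ESC-2i passed it for 2 of 4, Vim and Krt8, both lower, against 20.9% of 5007 genes, 7.31% higher and 13.6% lower. The limit of 20 molecules counts both populations together, so a member low in 1 population entered through the other. Krt8 did so through ESC-2i (20 molecules, against 1 in NSC and 2 in ESC-FCS), as did Lmnb1 (23, against 0 in NSC). Nes entered through NSC (47, against 6 in ESC-2i and 2 in ESC-FCS). For such members the filter largely sets the call, so these counts are descriptions. With 1 batch left out, Vim and Nes passed in each case in both NSC contrasts. Against ESC-2i, Krt8 passed without NSC batch 2. Otherwise it and Lmnb1 were under 20 molecules or met the raised floor of a smaller NSC sample. Krt8 in NSC then lay at 0.0883 to 0.766 of ESC-2i, and Lmnb1, set to the floor of 3 molecules, at 0.274 to 0.666 of it. Lmnb2 against ESC-FCS has exactly 20 molecules and so cannot pass with any batch left out. For ESC-FCS against ESC-2i the passing members were Lmnb1, lower, without ESC-2i batch 1, and Vim, lower, with Lmnb2, higher, without ESC-2i batch 2. They were Vim alone without ESC-FCS batch 1, and Krt8 and Lmnb1, both lower, without ESC-FCS batch 2. The median log2 ratio of the 5, 3 and 4 members with 20 molecules was -0.40, 3.43 and -1.13, against -0.05, 0.05 and -0.07 over all genes measured. These medians rest on the same filter, and -0.40 is the value of Lmnb2 and 3.43 that of Vim. They are descriptions and show no shift of the family. With the control cells in place of the ESC-FCS cells, chosen after seeing the data, the last count was 1, Krt8.

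Variation between cells was tested within each population, against the spike-ins plus a CV2 margin of 0.25, for genes with a normalized mean above 0.5. In ESC-2i none of the 3 members tested was called variable (adjusted p = 1 for Vim, Krt8 and Lmnb1 by the test of Brennecke and colleagues, Benjamini-Hochberg over 3616 genes), where 0.608% of genes were. None of the 3 had an unadjusted p below 0.05. In NSC neither Vim (squared coefficient of variation, CV2, 0.941 against a technical 0.378, adjusted p = 0.181 over 1157 genes) nor Nes (0.683 against 0.896, adjusted p = 1) was called, where 10.7% of genes were, and Vim alone had an unadjusted p below 0.05, at 0.0230. No member reached the mean limit in ESC-FCS, where 3.36% of 2026 genes were called. Without the margin, Vim in NSC was called variable (adjusted p = 9.75e-06 by the same test), so its result depended on the margin. A filament gene with a few molecules per cell has a wide technical spread, and variation below that spread was not detectable.

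**Figure D5:**
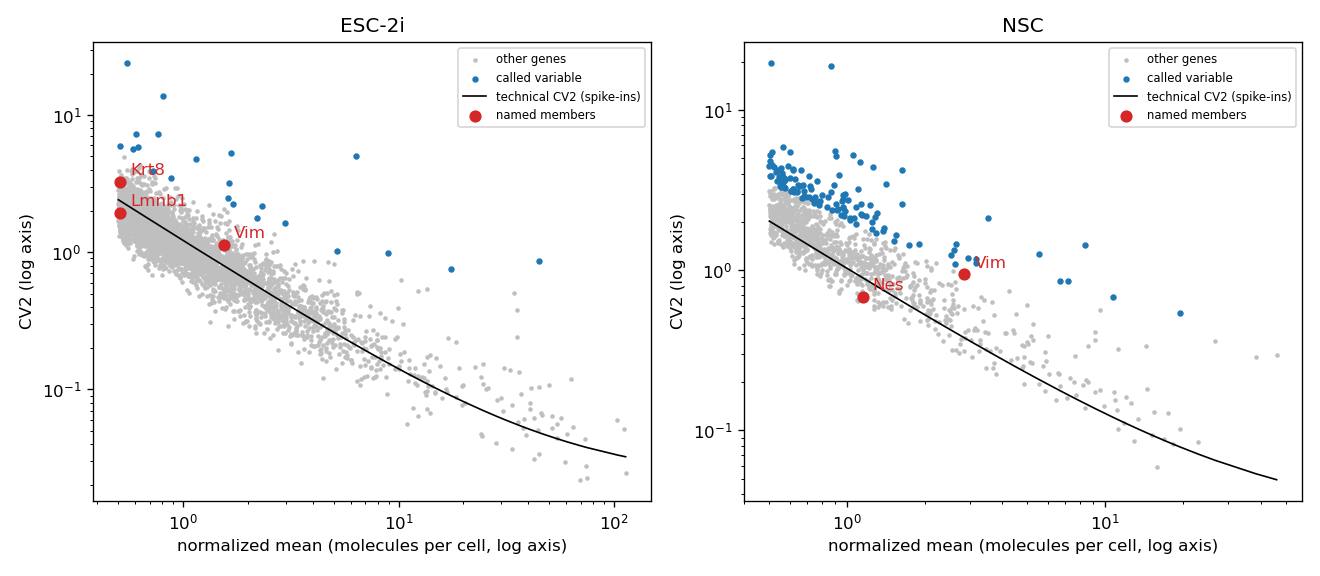
Squared coefficient of variation (CV2) against the normalized mean, both on log axes, for the genes tested in ESC-2i (left) and NSC (right). The line is the technical CV2 from the ERCC spike-ins, blue points are genes called variable, and red points are the members. Vim in NSC lies above the line at 0.941 and Nes below it at 0.683.

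Correlations between members over single cells were near 0. The Pearson correlation of log2(molecules per 10000 + 1) was -0.04 for Vim and Nes over 41 NSC, and 24 of them had molecules of both. Over 33 ESC-2i cells it was 0.04 for Vim and Krt8, -0.04 for Vim and Lmnb1 and 0.06 for Krt8 and Lmnb1. These cells share libraries and depth, and counts this low pull any correlation toward 0. The genes most like Vim over NSC, among 1377 compared, were Rtn1, a reticulon of the endoplasmic reticulum in neural cells (r = 0.57), Cox4i1, a subunit of cytochrome oxidase (0.55), and Clic4 (0.52). In ESC-2i, among 3978 compared, they were Scfd1 (0.62), Triobp (0.58) and Vamp2 (0.58), and for Krt8 Flad1 (0.63), Mak16 (0.58) and Nubp1 (0.53). In ESC-FCS the genes most like Vim, among 2469, were Pfkp (0.70), Mapk3 (0.70) and Evi5 (0.64). These had 24, 23 and 20 molecules in that order. In ESC-2i those most like Vim had 25, 21 and 22, and those most like Krt8 had 22, 41 and 62. Each is the top of a long list over few cells and is given as a description.

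Genes that work with these filaments were read by the same rule from lists made with earlier results known, and those named here were chosen after their values were seen. Of 29 other intermediate filament genes, 15 had a molecule, and 1 or 2 had 20 molecules in a contrast. Nefl, the light neurofilament chain, was lower in NSC and in ESC-FCS than in ESC-2i, with 4, 4 and 23 molecules, but lay at 0.502 per 10000 with pooled ESC-FCS cells and 0.277 in the summed ESC-2i pools. Ina, a filament protein of neurons, was highest in ESC-FCS, with 27 molecules against 8 in NSC and 3 in ESC-2i, and was 14.6 times higher there than in ESC-2i (4.50 to 75.3). By the rule it was lower in NSC than in ESC-FCS. The ESC-2i pools did not share the low level of the cells for Ina, with 31 and 45 molecules.

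Of 9 linker and desmosome genes, 6 had 20 molecules in NSC against ESC-2i, and 3 were lower in NSC with none higher, where 22.9% of all genes were lower and 17.7% higher. Jup, plakoglobin, which ties filaments to junctions, had 96 molecules in ESC-2i cells, 26 in ESC-FCS cells and none in NSC. With NSC set to the floor of 3 molecules, its level there was 13.2 times lower than in ESC-2i. Pkp2, a desmosomal plakophilin, had 22, 10 and 0, and Plec, plectin, which cross-links filaments, had 27, 8 and 1. Against ESC-FCS, 4 had 20 molecules and Jup alone passed the rule, lower in NSC, as 17.3% of all genes were. In ESC-FCS against ESC-2i, Plec and Jup were lower and none was higher, where 13.6% of all genes were lower. The separate libraries did not share this. Jup lay at 2.79 per 10000 with pooled ESC-FCS cells and 2.20 in the control cells, against 1.27 in the summed ESC-2i pools, and Plec at 0.837 in the ESC-FCS pool against 0.903.

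Of 18 genes of the nuclear lamina and of lamin processing, 9 had 20 molecules in NSC against ESC-2i. Of these 9, Emd, Sun1, Fnta and Fntb were lower in NSC and none was higher, beside 22.9% lower and 17.7% higher over all genes. Emd and Sun1 are inner nuclear membrane proteins, and Fnta and Fntb are the subunits of the farnesyltransferase that modifies B-type lamins and prelamin A. Fnta had 49, 32 and 6 molecules and Fntb 60, 14 and 8, in the order ESC-2i, ESC-FCS, NSC. Lbr, the lamin B receptor, was 2.01 times higher in ESC-FCS than in ESC-2i (1.34 to 3.04) and lower in NSC than in ESC-FCS, with 46, 57 and 18 molecules. The pools did not share the difference between media, with Lbr at 4.13 per 10000 in ESC-FCS and 4.10 in the summed ESC-2i pools. Banf1, which links chromatin to the lamina, differed less, with 160, 127 and 71 molecules and levels of 4.34, 5.60 and 4.67 per 10000. Emd, Sun1, Tor1aip2 and Fntb were lower in ESC-FCS than in ESC-2i cells, 4 of the 9 genes with 20 molecules, against 13.6% of all genes. In the pools the order was reversed for Emd, at 0.558 per 10000 in ESC-FCS (10 molecules) and 0.0308 in the summed ESC-2i pools (3 molecules). It was kept for Sun1, at 0.893 and 1.82, for Tor1aip2, at 2.29 and 6.45, and for Fntb, at 1.45 and 1.94.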

How the data were processed

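Counts of molecules (UMIs) and of reads per polyadenylation site and cell were deposited by the authors as raw counts without normalization. Per the methods, reads with terminal A were aligned to GRCm38 with GSNAP, kept if uniquely aligned, filtered for A-rich downstream sequence, assigned to a gene or to a window downstream of it, and merged within 12 nt. The submitters' processing notes name HTSeq and R 3.0.2. The gene table holds 107 of 144 cells, and cells under 1000 molecules were left out.

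Groups and library batches came from the labels. Levels are sums over cells per 10000 molecules on genes. With 1 culture per population, no test between populations was made. A count of 0 was set to 3 molecules for bounds, while the interval of a ratio used the count of 0 itself. The fold rule needed 20 molecules, a ratio of 2 and 1 direction in 4 pairs of batches. Cell-to-cell variation was tested as published by Brennecke and colleagues, with a CV2 margin of 0.25 and an adjusted p below 0.1, written in Python 3.11.15 with numpy 2.4.6, pandas 2.3.3 and scipy 1.17.1 and tested on simulated data. Sites of separately merged libraries were joined within 12 nt, and lamin ends were taken within 50 nt. Shares at 1000 molecules are hypergeometric expectations. The members and lists were chosen with earlier results of these data known. The rule for naming took all members, the 8 list genes with the largest log2 ratio of NSC to ESC-2i and the 3 genes most like Vim, Krt8 or Krt18 where their mean was at least 0.5 molecules per cell, which Krt18 did not reach. Other list genes were named after their values were seen. Alternatives changed the scale, the cells, the filters, the fold, the margin and the site width. Sequences of some sites are not reported here.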

Additional observations from a re-analysis of the deposited data

How the results depend on the processing

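NSC against ESC-2i passed the fold rule for 4 members, and for 2 to 3 when 1 library batch was left out, while Vim and Nes passed each time. For NSC against ESC-FCS the count of 3 became 2 with any 1 batch left out, since Lmnb2 has exactly 20 molecules and then falls under the filter. For ESC-FCS against ESC-2i the count of 2 was 1 with reads in place of molecules (Lmnb2, higher), 1 at a 4-fold threshold (Krt8), 1 with the ESC-FCS control cells in place of the ESC-FCS cells, an alternative chosen after seeing the data (Krt8), and 1 to 2 without 1 batch. Vim in ESC-FCS against ESC-2i reversed with spike-in scaling, to a ratio of 1.02. That scaling moved the median log2 ratio of all genes by 1.05 in this contrast, by -1.34 in NSC against ESC-FCS and by -0.30 in NSC against ESC-2i, and the share of calls that were higher went from 35.0% to 93.8%, from 52.9% to 8.51% and from 43.5% to 29.4%. With median-ratio scaling the last 2 were 43.8% and 34.3%. Without the CV2 margin 1 member, Vim in NSC, was called variable (adjusted p = 9.75e-06 by the test of Brennecke and colleagues), and under the other settings that could be fitted none was, in any population (0 to 0 without 1 batch). Vim in NSC ranged from that value to 1 over these settings. The share of Lmna at the lamin A end was 0% in ESC-2i and in ESC-FCS under each alternative and 0 to 100% in NSC, which had 2 molecules. Of the other ratios of single members under alternatives, 143 stayed in the main interval or on its side of a bound and 7 did not, among them Nes by reads (55.4 times higher in NSC than in ESC-2i). Spike-in scaling lowered the ratios of NSC to ESC-FCS, that of Vim included. The causes were not tested. No paired analysis was possible because each population is 1 culture and well names do not link cells of different populations. Depth limits every member but Vim and Nes to counts of 23 or fewer per population.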
